A study of Mus musculus with 12 samples.

Results

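The response to a high-fat diet (HFD) was measured in liver immune cells of caspase-11-deficient (Casp11-/-) mice. The 3 libraries of Casp11-/- mice on HFD were compared with the 3 of Casp11-/- mice on normal chow diet (NCD), chosen by their sample titles, which are 6 of the 12 libraries of the series. The other 6 came from WT mice of the C57BL/6J strain, 3 on each diet, and were used only to compare the diet response. All 6 Casp11-/- mice were of the strain B6.129S4(D2)-Casp4tm1Yuan/J, in which Casp4, the mouse gene of caspase-11, is disrupted in every cell. By strain the NCD controls lacked the caspase as well, which the Casp4 levels given below check only in part. The study's methods describe male mice that were 8 to 10 weeks old when feeding began and were fed for 12 weeks. Livers were digested and an immune cell fraction was taken, which the labels call hepatic macrophages. Total RNA was reverse-transcribed from random primers into stranded libraries. The question put by the design is which transcripts of liver immune cells differ between the diets when caspase-11 is missing.

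Kupffer cells are the resident macrophages of the liver. They sit in the sinusoids and take up bacteria, dying cells, modified lipoproteins and iron from portal blood, with scavenger receptors, complement receptors and the C1q opsonin among their abundant transcripts. Fatty liver disease is accompanied by loss of resident Kupffer cells and entry of monocyte-derived macrophages, some of which take on Kupffer cell genes or a lipid-associated program. Caspase-11 senses cytosolic lipopolysaccharide and cleaves gasdermin D, which opens pores in the cell membrane.

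The deposited values are TPM, reads per gene length scaled to a fixed library total. A level in the following text is the TPM of a protein-coding gene after these genes were rescaled to the same total of 1000000 in each library. The deposited values have a lower bound, so levels under 5.43, the highest rescaled bound of the 6 libraries, were set to 5.43, which is called the floor. A difference is HFD minus NCD in log2 units of these levels, given with its standard error. A gene was called when limma's adjusted p (Benjamini-Hochberg, two-sided) was under 0.05. No read counts are in the values, so the depth of each library is unknown and no counting error can be given. Separate mice are described by the methods, but no label names the animal of a library.

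The libraries did not all match their labels or each other. Casp4 (chr9:5308828-5336783 of GRCm38) was at 13.5, 11.8 and 36.1 in NCD replicates 1 to 3 and 15, 38.1 and 21.2 in HFD replicates 1 to 3, against 35.9 and 41.6 in WT-NCD replicates 1 and 2 and 29.6, 37.8 and 46.4 in WT-HFD replicates 1 to 3. The Casp11-/- diet groups overlapped (difference 0.36 ± 0.51 (SE), adjusted p = 0.733), and 2 of the 6 Casp11-/- libraries lay within the range of these 5 WT libraries. A gene-level value does not show which exons were read, so it checks the deletion only in part. HFD replicate 2, 1 of these 2 libraries by its level of 38.1, has the heading C1-HFD-M2 over its values where the title gives C11. HFD replicate 3 had 163 deposited TPM of Xist, against at most 1.92 in the other 5 libraries. Its Ddx3y, Eif2s3y, Kdm5d and Uty were at the deposited bound of 1.01, and the other 5 libraries had at least 8.93 of Ddx3y. Its male-biased liver gene Mup20 was at 17.7 deposited TPM against 486 to 2898 in the other 5, so it differs from the male mice of the methods. NCD replicate 2 correlated more with the HFD libraries (Pearson r 0.882 to 0.907 across genes) than with NCD replicates 1 and 3 (0.790 to 0.847), and hepatocyte transcripts took 17.2% of its protein-coding level against 3.23% and 2.85% in those. The fraction held more than macrophages, since the summed level of 16 B cell markers was 3347 to 7279 on NCD and 1395 to 2204 on HFD, against 328 to 630 and 1731 to 3046 for 20 Kupffer cell markers. Beside the calls of a gene list stand those without NCD replicate 2 or HFD replicate 3 where they differ. The 5 genes of U3 small nucleolar RNA held 1.24% to 4.84% of deposited TPM in the NCD libraries and 25.8% to 52.9% in the HFD libraries, and protein-coding genes held 22.3% to 42.4% and 19.3% to 23.4%.

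Of 11053 genes tested, 28 were called between the diets, which is 0.253% of them. These were 20 higher on HFD (0.181%) and 8 lower (0.0724%). The higher genes were led by Kupffer cell receptors and the 3 chains of C1q, and the lower ones by genes of gut-type and ductal epithelium. The median difference over all genes was −0.24, and 32.9% of genes had a difference above 0. Scaling by the median ratio between libraries moved this median to −0.019, and unscaled TPM moved it to −0.63, so small differences depend on the scale. On unscaled TPM of all gene types the calls were 49 higher and 251 lower of 14954 genes, a split opposite to that after rescaling. At an unadjusted p under 0.05 there were 1983 genes (17.9%), 896 higher and 1087 lower. At p of at most 0.01 with a change of at least 1.5-fold there were 691 (6.25%), 459 higher (4.15%) and 232 lower (2.1%). Without NCD replicate 2, 1317 of 10858 genes were called (12.1%), 705 higher (6.49%) and 612 lower (5.64%). Without HFD replicate 3, the calls were 4 higher (0.037%) and 2 lower (0.0185%) of 10808 genes (0.0555% in all), namely Cd5l, Vsig4, Folr2, Clec4f, Muc3 and Reg1. The count also moved with the other libraries, to 1 call without NCD replicate 1, 6 without NCD replicate 3, 13 without HFD replicate 1 and 54 of 10879 (0.496%) without HFD replicate 2. Of 77 genes named in the text that could be tested without NCD replicate 2, 44 that were not called from all 6 libraries were then called. With 0.253% of all genes called, a short list is expected to hold no call, so the lack of a call does not place a list at the background.

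**Figure D1:**
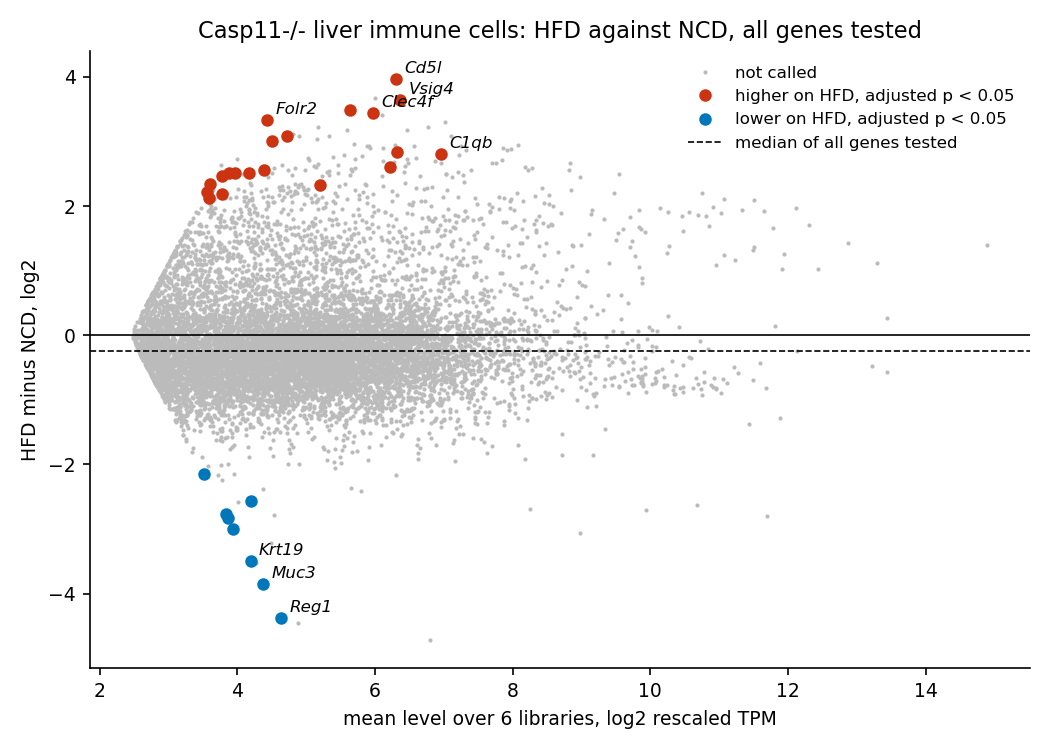
Each point is 1 of the 11053 genes tested, with the mean level over the 6 libraries in log2 rescaled TPM on the x axis and the HFD minus NCD difference in log2 on the y axis; red points are the 20 genes called higher on HFD, blue points the 8 called lower, and the dashed line is the median of all genes (−0.24). Cd5l and Vsig4 lie at the top and Reg1 and Muc3 at the bottom.

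Kupffer cell genes held 7 of the 28 calls. Of the 20 genes in the Kupffer cell list, 16 could be tested and 7 rose on HFD (Cd5l, Vsig4, Folr2, Clec4f, Fcna, Cd163 and Timd4), with none lower, beside 0.181% of all genes called higher. Cd163, at the floor in every NCD library, could only be called higher. The median difference of the 16 was 2.52. In bulk RNA, more cells of a type and more RNA of these genes per cell cannot be told apart.

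Cd5l encodes a secreted scavenger protein (AIM) that binds lipids and supports macrophage survival. Its level was 16.8, 26.1 and 18 in NCD replicates 1 to 3 and 342, 243 and 364 in HFD replicates 1 to 3. The lowest HFD library was thus far above the highest NCD library, and the fitted difference was 3.97 ± 0.35 (SE), or 15.7-fold, with an adjusted p of 0.00177. Vsig4, the complement receptor CRIg that captures C3b-coated particles, was at 16.4, 27.9 and 27.6 on NCD and 367, 183 and 369 on HFD. This was a difference of 3.65 ± 0.40 (SE), or 12.5-fold (adjusted p = 0.00412), and HFD replicate 2 was the lowest of its group in both genes. Clec4f, a C-type lectin that in mice marks Kupffer cells, was at 11, 22.2 and 28.8 on NCD and 229.6, 144 and 267 on HFD (3.43 ± 0.43 (SE), adjusted p = 0.00764). Folr2, a folate receptor of resident macrophages, was at 5.43, 7.14 and 8.09 on NCD and 66.3, 51.3 and 94.2 on HFD (3.33 ± 0.39 (SE), adjusted p = 0.00576). These 4 genes stayed called without HFD replicate 3, with adjusted p of 0.00888, 0.0215, 0.0493 and 0.0308 in that order, and without NCD replicate 2. Without NCD replicate 1 only 1 of all the calls was kept, so these 4 did not all stay called. Without NCD replicate 3, 6 of all the calls were kept.

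Timd4, Cd163 and Fcna were near the floor on NCD. Timd4 encodes the phosphatidylserine receptor TIM-4 of long-lived resident Kupffer cells. It was at 5.43, 5.43 and 7.94 on NCD and 43.3, 23.9 and 42.3 on HFD (2.51 ± 0.39 (SE), adjusted p = 0.0285). Cd163, the receptor for haemoglobin-haptoglobin complexes, was at the floor in all 3 NCD libraries and at 24.3, 23.6 and 28.6 on HFD. Its difference of 2.23 (adjusted p = 0.022) is measured against the floor, which sets its size. Cd163 could be tested through the HFD libraries alone and has no spread on NCD, so it had to be higher. Fcna, the lectin ficolin A that binds microbial sugars, was at 6.61, 13.1 and 8.42 on NCD and 51.5, 65.7 and 133 on HFD, with replicate 3 highest (3.09 ± 0.45 (SE), adjusted p = 0.022). The calls of Timd4 and Fcna were lost without HFD replicate 3 (adjusted p = 0.134 and 0.108), and Cd163 was then above the floor in too few libraries to be tested.

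The 3 genes of C1q lie side by side on chromosome 4 and encode the chains of the recognition protein of classical complement, which in liver is made by macrophages. C1qa was at 23, 31.6 and 37.8 on NCD and 199, 139.8 and 219.6 on HFD. C1qb was at 37, 46.6 and 59.9 on NCD and 359, 267 and 370.0 on HFD, and C1qc at 23.5, 31 and 36.4 on NCD and 226, 157 and 269.7 on HFD. All HFD libraries lay above all NCD libraries in each chain, and the fitted differences of C1qa, C1qb and C1qc were 2.60 ± 0.36 (SE), 2.81 ± 0.35 (SE) and 2.83 ± 0.36 (SE), with adjusted p of 0.0146, 0.00764 and 0.00764. Without HFD replicate 3 these p were 0.109, 0.0569 and 0.0658. Of 14 genes for complement components and complement receptors of macrophages, 4 rose (the 3 C1q chains and Vsig4) and 7 had HFD libraries above all NCD libraries, beside 7.1% of all genes. The calls numbered 8 without NCD replicate 2 (6.49% of all genes were then called higher) and 1 without HFD replicate 3 (0.037%).

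**Figure D2:**
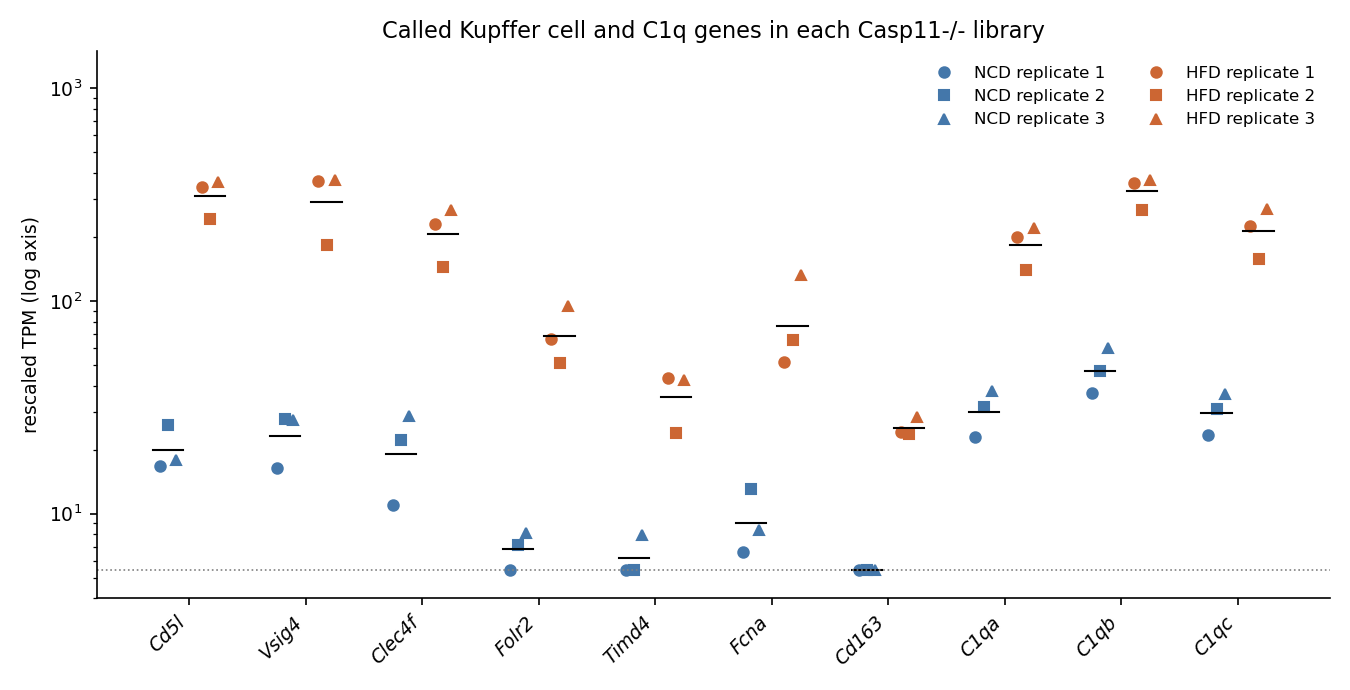
Levels in rescaled TPM on a log axis for 7 Kupffer cell genes and the 3 C1q genes in each Casp11-/- library, with blue for NCD, orange for HFD and a symbol for each replicate; black bars are geometric means of 3 libraries and the dotted line is the floor of 5.43. In all 10 genes every HFD library is above every NCD library, but the genes were drawn because they were called higher from these libraries. Cd163, at the floor on NCD, could only be higher.

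Other macrophage genes did not pass the threshold. Slc40a1, the iron exporter ferroportin, was at 51.1, 118 and 54.7 on NCD and 471, 256 and 382 on HFD, a difference of 2.37 ± 0.42 (SE) that just missed the threshold (adjusted p = 0.0502). Mertk, a receptor for the uptake of dying cells, was at 5.43, 34.2 and 24.8 on NCD and 76.1, 76.7 and 157 on HFD (adjusted p = 0.0823). Adgre1, which encodes the pan-macrophage marker F4/80, was at 81.7, 28.9 and 114 on NCD and 114, 109 and 131 on HFD, so the groups overlapped at 114 (adjusted p = 0.357). Nr1h3, the sterol receptor LXRα needed for Kupffer cell identity, was at 25.5, 64 and 41.1 on NCD and 46.7, 47.6 and 59.5 on HFD, with overlap. Id3, another regulator of Kupffer cells, overlapped as well, at 30.8, 70.3 and 66.1 on NCD and 104, 57.2 and 145 on HFD. Marco, a scavenger receptor of Kupffer cells, was at the floor on NCD and at 9.38, 5.43 and 6.58 on HFD, too few libraries above the floor for a test. Once NCD replicate 2 was left out, 11 genes of the Kupffer cell list were called higher (6.49% of all genes), and without HFD replicate 3 there were 4 (0.037%).

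Promoter sequences are shown for the 4 Kupffer cell genes of the list with the smallest p that have a promoter in the RefSeq table, since these genes moved together. Each runs 5′ to 3′ on the gene's strand from 250 bases before to 50 bases after the annotated start (GRCm38.p6, credited to RefSeq). Capitals mark GAGGAA or its reverse complement TTCCTC, the core that the macrophage factor PU.1 binds, searched on both strands.
Cd5l, chr3:87357631-87357930, plus strand: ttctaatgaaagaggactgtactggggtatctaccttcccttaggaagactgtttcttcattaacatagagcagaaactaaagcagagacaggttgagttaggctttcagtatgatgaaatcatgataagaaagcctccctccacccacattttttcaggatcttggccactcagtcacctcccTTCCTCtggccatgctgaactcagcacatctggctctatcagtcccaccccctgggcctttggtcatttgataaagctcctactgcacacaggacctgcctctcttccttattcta
Vsig4, chrX:96293389-96293688, minus strand: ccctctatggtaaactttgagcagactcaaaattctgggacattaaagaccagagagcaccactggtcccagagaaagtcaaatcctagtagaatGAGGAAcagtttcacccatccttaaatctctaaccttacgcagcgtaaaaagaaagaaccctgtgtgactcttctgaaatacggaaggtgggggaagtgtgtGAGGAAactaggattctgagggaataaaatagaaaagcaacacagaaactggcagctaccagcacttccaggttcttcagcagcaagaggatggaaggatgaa
Clec4f, chr6:83656067-83656366, minus strand: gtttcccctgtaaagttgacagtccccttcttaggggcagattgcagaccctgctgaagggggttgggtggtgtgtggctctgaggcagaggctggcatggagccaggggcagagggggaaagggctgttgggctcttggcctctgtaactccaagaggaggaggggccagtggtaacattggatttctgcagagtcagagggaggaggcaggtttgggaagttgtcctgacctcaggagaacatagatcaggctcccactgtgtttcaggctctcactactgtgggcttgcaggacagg
Fcna, chr2:25627925-25628224, minus strand: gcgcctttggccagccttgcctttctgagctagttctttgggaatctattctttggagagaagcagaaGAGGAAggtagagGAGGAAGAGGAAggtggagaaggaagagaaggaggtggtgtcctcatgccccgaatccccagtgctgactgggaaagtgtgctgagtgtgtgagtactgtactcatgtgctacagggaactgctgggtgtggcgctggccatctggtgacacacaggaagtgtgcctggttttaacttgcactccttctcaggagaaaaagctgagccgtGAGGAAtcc
Cd5l held 1 such match, Vsig4 2, Clec4f 0 and Fcna 4. The promoters of Cd163 and Timd4, also called and on the list, held 0 each and are not printed. Of the 20 genes called higher, 16 matched the RefSeq table, with 20 promoters, and 9 of these promoters held GAGGAA on either strand (45%), against 28.3% of all 32851 promoters of the same length. Of the 8 promoters of genes called lower, 3 held GAGGAA. None of the 4 motifs searched contains another. The AP-1 motif TGACTCA was in 1 of the 20 (5.20% of all promoters), CCAAT in 6 (37.4% of all) and TATAAA in 1 (13.6% of all). A match describes the letters only, and binding was not measured.

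The other 10 genes called higher were largely ones that are not particular to macrophages. Vcam1, an adhesion molecule of endothelium that Kupffer cells also carry, was at 18.1, 18.5 and 13.1 on NCD and 55.9, 83.9 and 119.6 on HFD (2.33 ± 0.39 (SE), adjusted p = 0.0411). Jam2, a junction protein of endothelial cells, was at 5.43, 35 and 17.3 on NCD and 125, 192 and 191 on HFD (3.48 ± 0.58 (SE), adjusted p = 0.0402). NCD replicate 2 held the highest NCD level of Jam2, still under all HFD libraries. Nos3, the endothelial nitric oxide synthase, was at 5.43, 8.13 and 6.06 on NCD and 23.5, 26.5 and 41 on HFD (2.19 ± 0.38 (SE), adjusted p = 0.0427). Adamts1, a secreted protease of the extracellular matrix, was at 5.43, 13.1 and 7.11 on NCD and 37.6, 60.3 and 117 on HFD (3.01 ± 0.50 (SE), adjusted p = 0.0402). Osmr, the receptor subunit for oncostatin M, was at 5.43, 13.1 and 6.06 on NCD and 34.1, 49.6 and 47.4 on HFD (2.51 ± 0.43 (SE), adjusted p = 0.0411). Fabp7, a fatty acid binding protein found in Kupffer cells, was at 6.06, 5.43 and 8.47 on NCD and 34.8, 29.9 and 50.4 on HFD (2.52 ± 0.38 (SE), adjusted p = 0.024). Ifi44, an interferon-induced gene, was at 5.43, 5.43 and 6.69 on NCD and 38.5, 18.1 and 47.2 on HFD (2.46 ± 0.42 (SE), adjusted p = 0.0411). Pmp22, a membrane protein of myelin and other tissues, was at the floor on NCD and at 25.7, 24.8 and 32.4 on HFD, so the size of its difference (2.34, adjusted p = 0.0196) is set by the floor. Pmp22 too could be tested through the HFD libraries alone and had to be higher. Spats2 and the ubiquitin ligase gene Hecw2 completed the group, with differences of 2.13 ± 0.35 (SE) (adjusted p = 0.0402) and 2.56 ± 0.43 (SE) (adjusted p = 0.0411). Without HFD replicate 3, Pmp22 could not be tested and the other 9 were not called, and all 10 stayed called without NCD replicate 2.

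Genes of liver sinusoidal endothelial cells, the fenestrated cells that line the sinusoids next to Kupffer cells, were higher on HFD in every member tested, but none of the 17 was called. All 17 had HFD libraries above all NCD libraries (7.1% of all genes), 16 had an unadjusted p under 0.05 (8.11% of all genes), and the median difference was 2.71. Lyve1, a hyaluronan receptor, was at 5.43, 76.7 and 22.3 on NCD and 158, 226 and 314 on HFD (3.41 ± 0.75 (SE), adjusted p = 0.0781). Clec4g, the lectin LSECtin, was at 27.6, 232 and 145 on NCD and 626, 539.6 and 1270.0 on HFD (adjusted p = 0.0782). Stab2, the scavenger receptor stabilin-2, was at 14.9, 157 and 144 on NCD and 303, 287 and 795 on HFD (adjusted p = 0.139). Kdr, the receptor VEGFR2, was at 14.6, 136 and 91.4 on NCD and 302, 263 and 764 on HFD (adjusted p = 0.0914). In these genes NCD replicate 1 was the lowest and HFD replicate 3 the highest library. With NCD replicate 2 removed, 16 of the 17 were called higher, beside 6.49% of all genes. The summed level of the list was 628, 2852 and 2217 in NCD replicates 1 to 3 and 6760.1, 5601 and 13941 in HFD replicates 1 to 3.

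Hepatocyte genes are a check of other liver cells in the fraction. All 20 members, albumin and apolipoproteins among them, were above the deposited bound in the 6 libraries, and their sum took a share of the protein-coding level that was 3.23, 17.2 and 2.85% on NCD and 14.9, 15.3 and 13.5% on HFD. NCD replicate 2 was above all 3 HFD libraries in this share. None of the 20 was called, 8 had an unadjusted p under 0.05, all higher (8.11% of all genes), and the median difference was 1.41. Alb was at 12195, 48656 and 11161 on NCD and 48221, 43404 and 56891 on HFD, with overlap (adjusted p = 0.503). Apob was at 535, 3047 and 527 on NCD and 4071, 3059 and 3170.3 on HFD (adjusted p = 0.204). Without NCD replicate 2, 18 of the 20 were called higher, beside 6.49% of all genes. The summed Kupffer cell list was 328, 630.0 and 605 on NCD and 2445, 1731 and 3046 on HFD, so the sums of 3 cell types were each lower in NCD replicates 1 and 3 than in the HFD libraries. For the Kupffer cell and endothelial lists this held in NCD replicate 2 too. The part of hepatocyte and endothelial RNA in the higher genes was not tested.

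**Figure D3:**
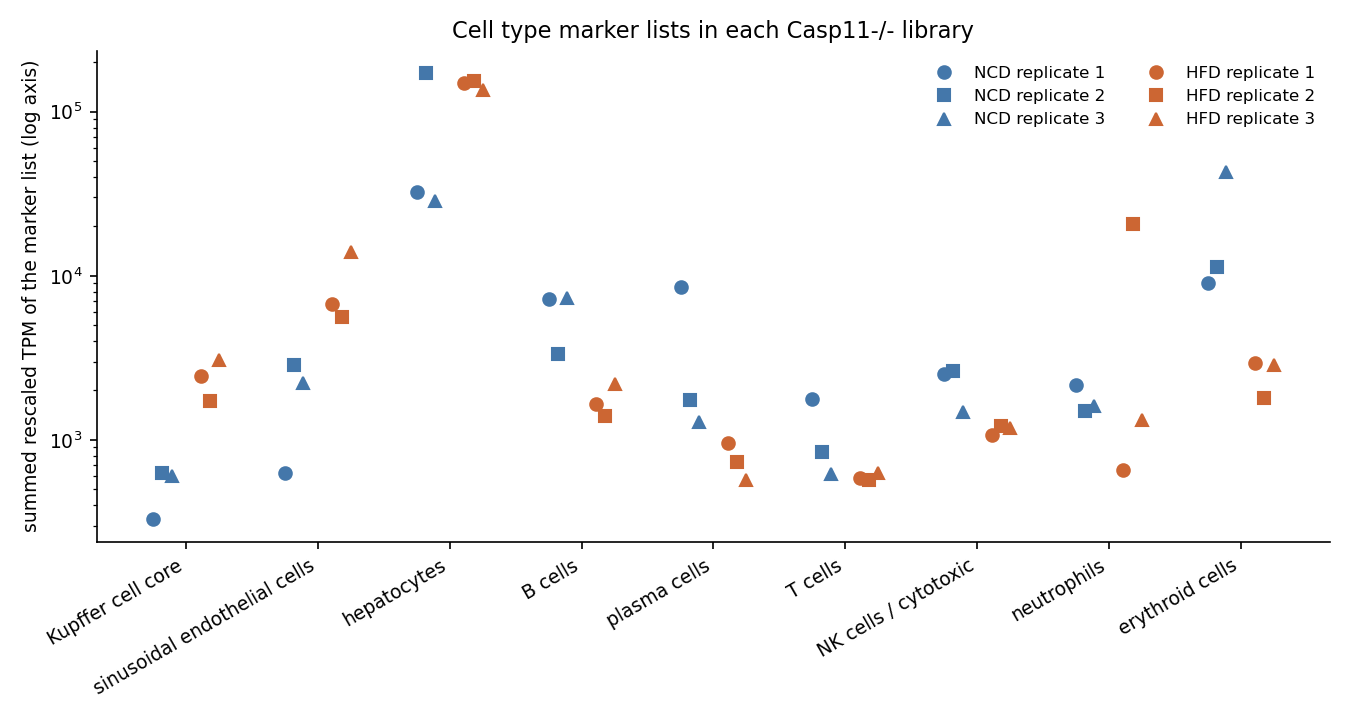
Summed level of 9 marker lists in rescaled TPM on a log axis, with 1 point for each Casp11-/- library, blue for NCD and orange for HFD. Kupffer cell and sinusoidal endothelial sums are higher in all 3 HFD libraries. B cell, plasma cell, NK cell and erythroid sums are lower in all 3. HFD replicate 2 has the highest neutrophil sum (20767).

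Receptors for uptake mostly had higher levels on HFD, with few calls. Of 17 scavenger and endocytic receptors tested, 15 had HFD libraries above all NCD libraries (7.1% of all genes) and 14 had an unadjusted p under 0.05, all higher (8.11%). The 4 called were Cd5l, Clec4f, Cd163 and Timd4, which are also in the Kupffer cell list, so they are the same calls and not further ones. The 4 called (0.181% of all genes were called higher) became 12 without NCD replicate 2 (6.49%) and 2 without HFD replicate 3 (0.037%), and the median difference was 2.49. Msr1, the macrophage scavenger receptor SR-A, was at 5.43, 12.8 and 31.1 on NCD and 72.8, 55.1 and 112 on HFD (2.56 ± 0.57 (SE), adjusted p = 0.0781). Mrc1, the mannose receptor of macrophages and sinusoidal endothelium, was at 16.4, 134 and 93.5 on NCD and 398, 284 and 707 on HFD (adjusted p = 0.0801). Cd36, a receptor for oxidized lipoproteins and fatty acids, was at 26.5, 50.7 and 72.5 on NCD and 352, 161 and 475 on HFD (2.70 ± 0.49 (SE), adjusted p = 0.0552). Each of these 3 had HFD libraries above all NCD libraries without passing the threshold.

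Genes of lipid-associated macrophages were mixed. Of 18 tested, 1 was called (Fabp7) and 11 had an unadjusted p under 0.05, all higher (8.11% of all genes), with a median difference of 0.93. The calls were 4 without NCD replicate 2 (6.49% of all genes were then called higher) and 0 without HFD replicate 3 (0.037%). Lpl, the lipoprotein lipase, was at 19.7, 16 and 40.2 on NCD and 222, 57 and 80.3 on HFD, with HFD replicate 1 the highest (adjusted p = 0.0875). Trem2, the receptor that marks these cells, was at 5.43, 5.43 and 14.2 on NCD and 10.2, 11 and 5.43 on HFD, and so overlapped between the diets. Gpnmb was high in HFD replicate 1 alone, at 7.0, 10.8 and 11.5 on NCD and 116, 8.22 and 6.77 on HFD. Spp1, which encodes osteopontin, overlapped at 76.1, 28.3 and 83.2 on NCD and 60.8, 47.7 and 141 on HFD. The list of the study's NASH-associated macrophage markers joins the set it names for WT mice with Folr2, which it names for both genotypes. Of these markers, 13 of 15 were tested and 5 rose (Cd5l, Folr2, C1qb, Clec4f and Fabp7), beside 0.181% of all genes called higher, with a median difference of 1.94. The calls were 7 without NCD replicate 2 (6.49% of all genes) and 3 without HFD replicate 3 (0.037%). Of the study's healthy macrophage markers, 9 of 10 were tested and 2 rose (Fcna and Cd163), with a median of 1.62. Cd163, at the floor on NCD, could only be called higher. The calls were 6 without NCD replicate 2 (6.49% of all genes) and 0 without HFD replicate 3 (0.037%). The study shows both sets of markers from libraries of this series, of WT mice or of both genotypes, so their direction is not independent evidence, and both contain Kupffer cell genes. Cxcl13, a B cell attracting chemokine of the healthy list, was at 5.43, 9.65 and 6.08 on NCD and 21, 17.7 and 23.9 on HFD (adjusted p = 0.0781). Among 18 genes of cholesterol efflux and LXR targets, none was called, while 4 were called higher without NCD replicate 2 (6.49% of all genes). Of the 18, 7 had an unadjusted p under 0.05, all higher (8.11% of all genes). An example was Abca1, the efflux transporter, at 87.2, 135 and 117 on NCD and 233, 247 and 227 on HFD (adjusted p = 0.143).

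The 8 genes called lower on HFD are mainly genes of gut-type and ductal epithelium, and 7 of them were at the floor in all 3 HFD libraries. Muc3, an intestinal membrane mucin, was at 85.5, 57.9 and 98.1 in NCD replicates 1 to 3 (difference −3.86 against the floor, adjusted p = 0.00195). Reg1, a secreted lectin of pancreas and gut, was at 232, 103 and 61 on NCD (−4.39, adjusted p = 0.00412). S100g, the intestinal calcium binding protein calbindin-D9k, was at 64.2, 31.8 and 40.3 on NCD (−3.0, adjusted p = 0.00764). Lgals2 and Lgals4 encode galectins of gut epithelium and were at 62.1, 35.5 and 23.4 (Lgals2) and 56, 43.1 and 36.9 (Lgals4) on NCD. Lgals2 was at the floor on HFD (adjusted p = 0.0221), whereas Lgals4 was at 13.5, 5.43 and 5.78 there (−2.57 ± 0.44 (SE), adjusted p = 0.0411). Ckmt1, a mitochondrial creatine kinase, was at 80.7, 22.9 and 31.7 on NCD (adjusted p = 0.0402). Slc26a3, a chloride-bicarbonate exchanger of the colon, was at 32.2, 18 and 24 (adjusted p = 0.0402). Krt19, a keratin of bile ducts and gut, was at 169, 21.3 and 64.9 (adjusted p = 0.0489). NCD replicate 1 was the highest library in 7 of these 8 genes. The 7 genes at the floor on HFD passed the filter through the NCD libraries alone and have no spread on HFD, so they had to be lower, and a filter in all 6 libraries left no lower call. Without any 1 of the NCD libraries these 7 could not be tested, and Lgals4 stayed called without NCD replicate 2 but not without NCD replicate 1 or 3. Without HFD replicate 3, 2 of the 8 stayed called (Muc3 and Reg1). The next genes in order of p missed the threshold, Myrf (adjusted p = 0.0597), B3gnt8 (0.0597), the epithelial adhesion gene Epcam (0.0643) and B4galnt2 (0.0664).

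The same epithelial genes were present in a WT library on HFD. Muc3 was at 117, 6.79 and 4.08 in WT-HFD replicates 1 to 3, Reg1 at 298, 6.79 and 4.08, and S100g at 154, 6.79 and 4.08, so WT-HFD replicate 1 was above the Casp11-/- NCD libraries and the other WT-HFD libraries were at or near the bound. A list of 32 genes of intestinal epithelium was written after these values were seen and holds all 8 genes called lower. It summed to 1032, 787 and 458 on NCD, with 19, 24 and 17 members above the deposited bound. On HFD it summed to 70.2, 82.5 and 46.4, with 4 members above the bound in each library. Its fall in part repeats the 8 calls and is not separate evidence. These genes mark cells that a liver immune fraction should not hold, and the part of such cells in the 8 calls was not tested.

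**Figure D4:**
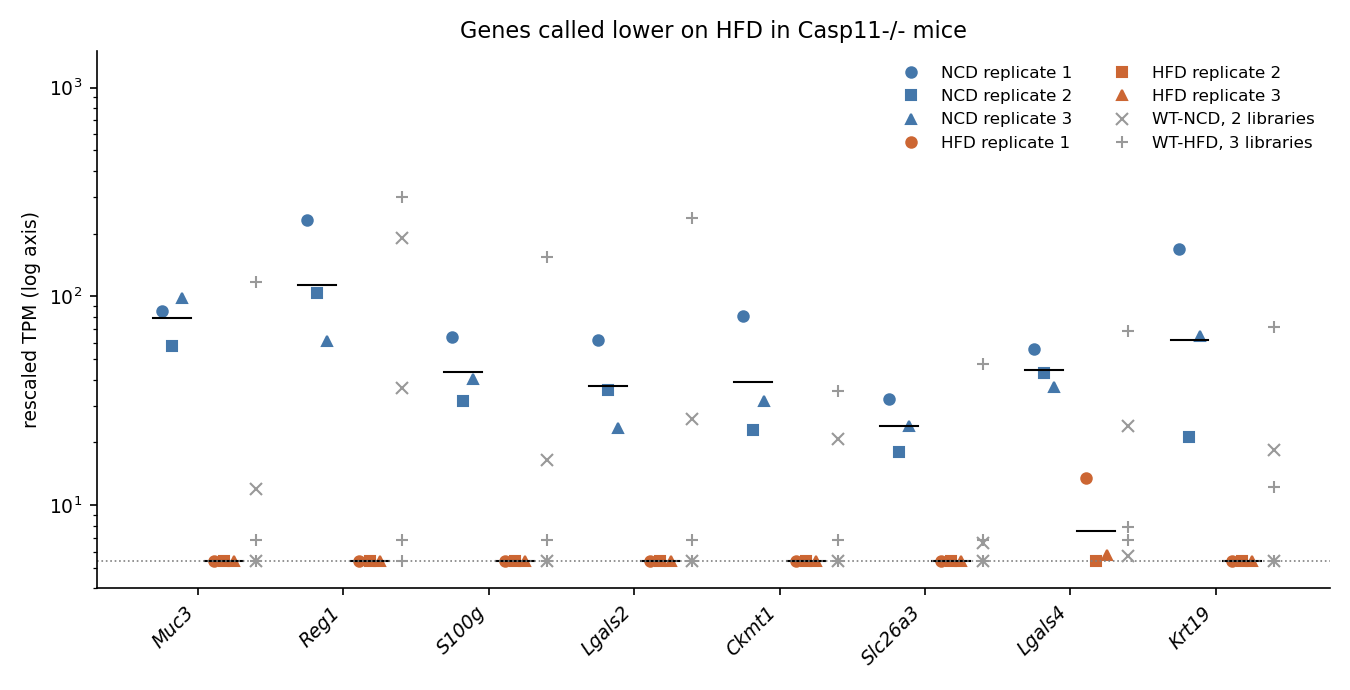
Levels in rescaled TPM on a log axis of the 8 genes called lower on HFD, with blue for Casp11-/- NCD and orange for Casp11-/- HFD replicates, grey crosses for 2 WT-NCD libraries and grey plus signs for 3 WT-HFD libraries; black bars are geometric means of 3 libraries and the dotted line is the floor of 5.43, under which WT values are drawn at it. WT-HFD replicate 1 is high in these genes while the Casp11-/- HFD libraries sit at the floor, except for Lgals4.

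B cell genes had lower levels on HFD in every member tested, without a call. Of 16 B cell genes, 15 had HFD libraries below all NCD libraries (15.7% of all genes) and 15 had an unadjusted p under 0.05 (9.83% of all genes), with a median difference of −1.71. Cd79a, a signalling chain of the B cell receptor, was at 1566, 727 and 1138 on NCD and 291, 228 and 407 on HFD (−1.86 ± 0.43 (SE), adjusted p = 0.0799). Pou2af1, a B cell coactivator, was at 839, 354 and 603 on NCD and at the even levels of 149, 148 and 152 on HFD (−1.91 ± 0.39 (SE), adjusted p = 0.0743). Cd79b was at 1295, 476 and 838 on NCD and 189, 200.4 and 285 on HFD, and Cxcr5, the receptor for Cxcl13, at 419, 137 and 385 on NCD and 77.7, 50.8 and 96.8 on HFD. Once NCD replicate 2 was left out, 13 of the 16 B cell genes were called lower (5.64% of all genes), and without HFD replicate 3 none was. The summed B cell list was 7202, 3347 and 7279 on NCD and 1653, 1395 and 2204 on HFD.

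Antibody-secreting cells showed a wider spread among the NCD mice. Jchain, which joins polymeric IgA and IgM, was at 6383, 966 and 508 on NCD and 370.3, 152 and 94.7 on HFD (−3.07 ± 0.82 (SE), adjusted p = 0.0982). NCD replicate 1 was far above the other NCD libraries in Jchain. The same library was highest in Mzb1, at 371, 75.2 and 53.3 against 29.3, 17.1 and 21.5 on HFD, and in Derl3, at 229, 47.3 and 20.8 against 11.9, 7.79 and 7.45. The immunoglobulin constant regions, which are not in the protein-coding scale, held 5.27%, 0.502% and 1.05% of the deposited TPM on NCD and 0.148% to 0.196% on HFD. Of 8 plasma cell genes, 6 had HFD libraries below all NCD libraries (15.7% of all genes) and none was called, while 4 were called lower without NCD replicate 2 (5.64%).

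MHC class II genes, carried by B cells and by macrophages, had lower levels as well, without a call. Of 13, 11 had HFD libraries below all NCD libraries (15.7% of all genes) and 8 had an unadjusted p under 0.05, all lower (9.83% of all genes), with a median of −0.93. Cd74, the invariant chain, was at 8079, 4090.1 and 6269.6 on NCD and 2017, 2434 and 2929 on HFD (adjusted p = 0.275). H2-DMb2 was at 422, 224 and 416 on NCD and 95.6, 85.6 and 153 on HFD, and the transactivator Ciita at 162, 84.5 and 209 on NCD and 48.6, 55.6 and 61 on HFD. With NCD replicate 2 removed, 10 of the 13 were called lower (5.64% of all genes). T cell and NK cell lists were nearer the median of all genes, −0.77 over 16 T cell genes and −0.74 over 16 NK and cytotoxic genes, with 1 and 5 genes at an unadjusted p under 0.05, all lower (9.83% of all genes). The summed T cell list overlapped between the diets, at 1771, 845 and 622 on NCD and 588, 566 and 630.2 on HFD. The summed NK and cytotoxic list did not, at 2508, 2614 and 1485 on NCD and 1070, 1218 and 1188 on HFD. Of its 16 genes, 8 had HFD libraries below all NCD libraries (15.7% of all genes). Nkg7, a granule protein of cytotoxic cells, was at 588, 464 and 262 on NCD and 239, 207 and 213 on HFD (adjusted p = 0.252). Monocyte genes had a median of −0.46 over 15, none with an unadjusted p under 0.05 in either direction, and dendritic cell genes −0.49 over 15. Without NCD replicate 2, 3 monocyte genes, 1 dendritic cell gene and 1 T cell gene were called lower, beside 5.64% of all genes.

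Erythroid genes were lower in all HFD libraries but uneven on NCD. Only 5 of 13 could be tested, and all 5 had HFD libraries below all NCD libraries (15.7% of all genes). Without NCD replicate 2, 4 were called lower (5.64% of all genes). Hbb-bs, a β-globin gene, was at 2271, 3065 and 9743 on NCD and 689.7, 529.5 and 793 on HFD (adjusted p = 0.0781), with NCD replicate 3 the highest, and Hba-a2 was at 1356, 1854 and 6362 on NCD and 451, 280.3 and 451 on HFD. Globin copies share sequence, so reads may be split between them. The part of red cells in these values was not tested. Mcpt8, a basophil protease, was at 14.5, 14.4 and 13.8 on NCD and 5.43, 6.04 and 5.82 on HFD (−1.30 ± 0.31 (SE), adjusted p = 0.0801), while the platelet gene Ppbp was higher, at 32.2, 53.9 and 103 on NCD and 303, 183 and 209.6 on HFD (2.01 ± 0.44 (SE), adjusted p = 0.0781).

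Cholesterol synthesis was the metabolic list with the most genes at low p. Of 20 genes tested, 10 had HFD libraries below all NCD libraries (15.7% of all genes) and 9 had an unadjusted p under 0.05, all lower (9.83%) and none called, with a median of −0.76. Idi1, the isomerase of the isoprenoid step, was at 26.7, 20.6 and 20.9 on NCD and 7.04, 7.94 and 7.06 on HFD (−1.62 ± 0.34 (SE), adjusted p = 0.077), with little spread in either group. Mvd, the mevalonate decarboxylase, was at 32.8, 21.1 and 20.3 on NCD and 7.41, 7.56 and 8.21 on HFD (adjusted p = 0.0781). Sqle, the squalene epoxidase, was at 59.1, 41.1 and 35.2 on NCD and 24.3, 7.49 and 9.56 on HFD, and Cyp51, the lanosterol demethylase, at 53, 52.9 and 42.6 on NCD and 21.7, 16.2 and 14.7 on HFD. Srebf2, the transcription factor of the pathway, was at 209, 80.1 and 155 on NCD and 47.1, 50.1 and 61.6 on HFD (adjusted p = 0.122). Without NCD replicate 2, 5 of the 20 were called lower, beside 5.64% of all genes. Relative to the median of all genes, the list lay at −0.52 here, −0.48 with median ratio scaling and −0.47 on unscaled TPM.

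Genes of energy metabolism gave few low p-values. None of 20 glycolysis genes and none of 29 nuclear genes of oxidative phosphorylation had an unadjusted p under 0.05, against 17.9% of all genes, with medians of 0.13 and −0.0021. Of 21 genes of fatty acid oxidation and PPAR targets, 2 had an unadjusted p under 0.05, both higher (8.11% of all genes). None was called, while 3 were called higher without NCD replicate 2 (6.49% of all genes). Pdk4, a kinase that shuts off pyruvate oxidation, was at 5.43, 10.2 and 5.43 on NCD and 47.7, 20.0 and 30.7 on HFD (2.20 ± 0.44 (SE), adjusted p = 0.0664). Cytosolic ribosomal proteins had a median of −0.64 over 33 genes, with 18 below all NCD libraries (15.7% of all genes) and none at an unadjusted p under 0.05. Of 25 replication-dependent histone genes, 17 had an unadjusted p under 0.05, all lower (9.83% of all genes) and none called. Histone genes are near-identical copies, so reads may be split between them. The 19 cell cycle genes had none. The lysosome list had 6 higher and 1 lower of 25 at an unadjusted p under 0.05 (17.9% of all genes) and no call. It had 4 higher and 2 lower calls without NCD replicate 2, beside 12.1% of all genes. In it were the cathepsin gene Ctsl at 58.3, 149 and 43.4 on NCD and 232, 224 and 299.9 on HFD and the protease gene Lgmn at 119, 97.8 and 156 on NCD and 262, 306 and 421 on HFD.

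**Figure D5:**
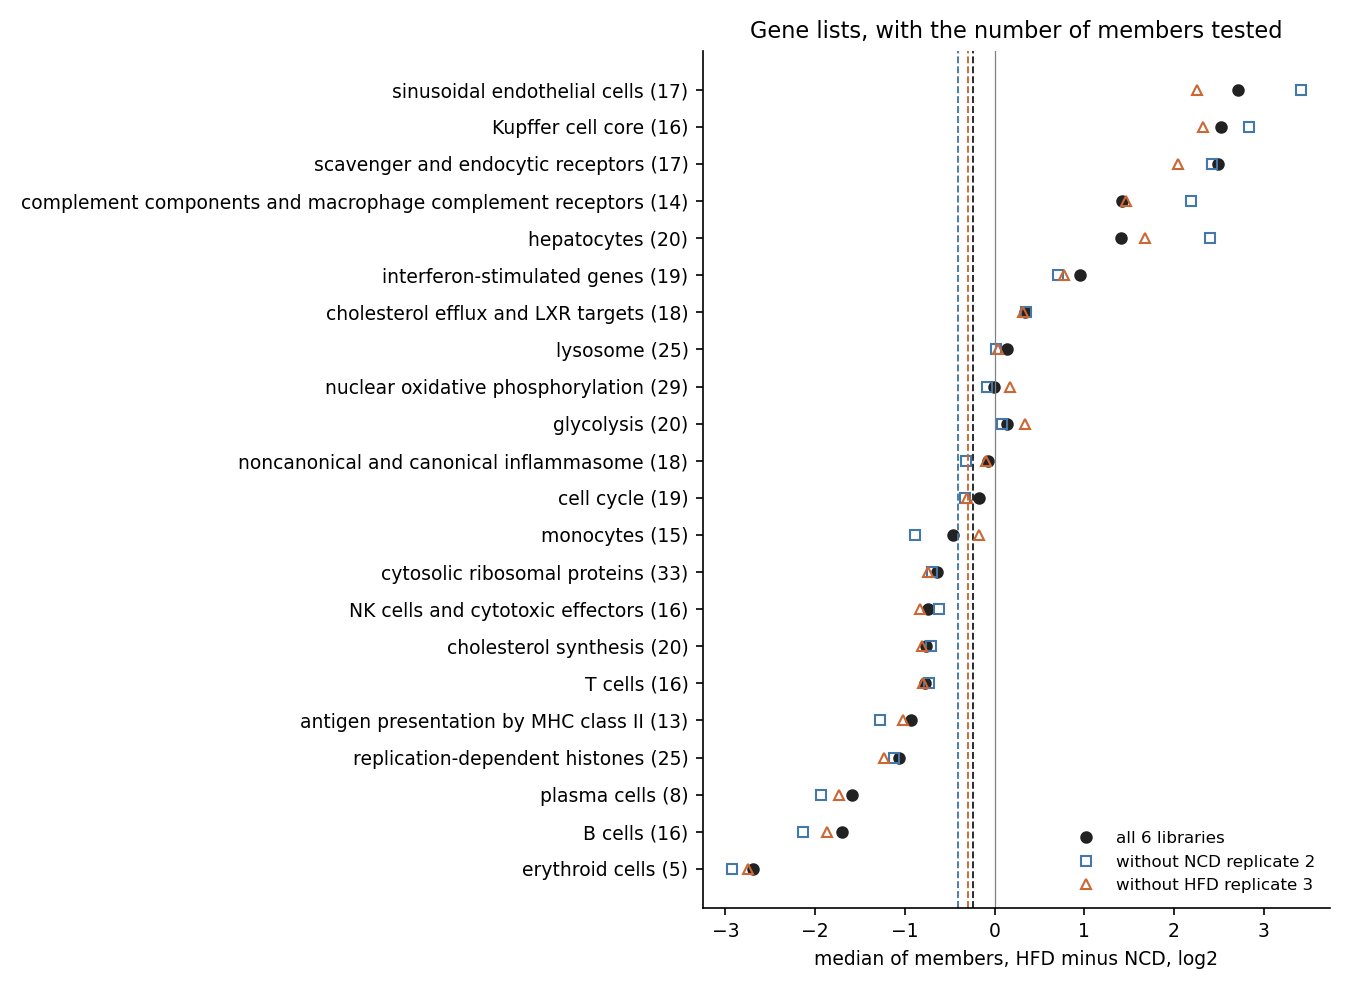
Median HFD minus NCD difference in log2 over the tested members of 22 gene lists (number of members in brackets), from all 6 libraries (filled circles), without NCD replicate 2 (squares) and without HFD replicate 3 (triangles); dashed lines are the medians of all genes tested in each set. Sinusoidal endothelial, Kupffer cell and scavenger receptor lists lie highest, and B cell, plasma cell and erythroid lists lowest, in all 3 sets. Some genes are in several lists, such as Clec4f in the Kupffer cell and scavenger receptor lists.

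The inflammasome list, around caspase-11, lay near the background. None of its 18 genes was called (0.253% of all genes), and 2 were higher and 1 lower at an unadjusted p under 0.05 (17.9% of all genes), with a median of −0.079. Gsdmd, which encodes the pore protein gasdermin D, overlapped at 39.3, 31.6 and 75.2 on NCD and 25.8, 47.2 and 35.4 on HFD (−0.37 ± 0.42 (SE), adjusted p = 0.656). Casp1 overlapped at 50.9, 29.5 and 83.5 on NCD and 47, 43.2 and 55.4 on HFD, and Nlrp3, the sensor of the canonical inflammasome, at 15, 12.1 and 41 on NCD and 10.5, 50.6 and 45.5 on HFD. Il1a, an alarmin cytokine, was at 5.43, 15 and 19.8 on NCD and 96.3, 41.5 and 333 on HFD, all HFD libraries above all NCD libraries (3.23 ± 0.70 (SE), adjusted p = 0.0781). Il1b was uneven on HFD, at 74.6, 74.5 and 140.2 on NCD and 55.7, 784 and 208 on HFD, the highest in HFD replicate 2 (adjusted p = 0.416). The neutrophil gene S100a8 was at 339, 10592 and 588 in HFD replicates 1 to 3, and the summed neutrophil list of HFD replicate 2 was 20767 against 658 to 2159 in the other 5 libraries. The part of neutrophils in its Il1b level was not tested.

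Of 23 genes that sense lipopolysaccharide or prime the response to it, 3 were higher and 2 lower at an unadjusted p under 0.05, which is near the 17.9% of all genes, and none was called. Tlr4, the surface receptor of lipopolysaccharide, was at 12.2, 9.74 and 33.4 on NCD and 38.8, 54.6 and 40.6 on HFD (1.48 ± 0.48 (SE), adjusted p = 0.159). Lbp, the lipopolysaccharide binding protein made by hepatocytes, was at 21.3, 54.8 and 27.9 on NCD and 86.2, 135 and 105 on HFD (adjusted p = 0.0801). Of 19 interferon-stimulated genes, 7 had an unadjusted p under 0.05, all higher (8.11% of all genes), and Ifi44 was called, with a median of 0.95. Without NCD replicate 2, 2 were called higher (6.49% of all genes), and without HFD replicate 3, 0 were (0.037%). Ifit3 was at 12.5, 8.48 and 14.8 on NCD and 40.1, 27.9 and 43.3 on HFD (1.65 ± 0.39 (SE), adjusted p = 0.0801). Among 14 guanylate binding proteins and immunity-related GTPases, which help to expose bacterial lipopolysaccharide, 1 had an unadjusted p under 0.05, Iigp1, at 18.8, 55.9 and 23.4 on NCD and 125, 78.9 and 177 on HFD (2.05 ± 0.47 (SE), adjusted p = 0.0781). Their median was 0.32. In the fit with WT mice, described in the next paragraph, their WT median was 1.35 over 15 genes. In WT mice 5 of these were called higher, beside 0.617% of all genes. None of the list passed the test of a difference between the genotypes. Without NCD replicate 2 the calls were 1 higher in the inflammasome list, 1 higher and 2 lower among the genes for lipopolysaccharide, and 1 higher in this list, beside 12.1% of all genes.

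The diet response of WT mice was set beside that of Casp11-/- mice in a fit of 11 libraries, which leaves out WT-NCD replicate 3 because its values do not resemble those of the other libraries. The responses share no samples, but the genes compared here were chosen in the Casp11-/- mice. The spread was pooled over the 11 libraries, 6 of them Casp11-/-, so the count called in WT mice is not independent of that choice. In WT mice 115 of 11177 genes were called (1.03%), 69 higher (0.617%) and 46 lower (0.412%). Of the 20 genes called higher in Casp11-/- mice, 19 were also higher in WT mice (53.9% of all genes were) and 14 were called there, with a median WT difference of 2.73. Cd5l was at 25.4 and 11.4 in WT-NCD and 778, 476 and 683 in WT-HFD, Vsig4 at 19.1 and 14.2 in WT-NCD and 596, 314 and 350.0 in WT-HFD, and C1qb at 60.9 and 47.2 in WT-NCD and 682, 241 and 631 in WT-HFD. The exception was Nos3, at 19.4 and 11.3 in WT-NCD and 13.4, 9.08 and 20.3 in WT-HFD (difference −0.13). Of the 8 genes called lower, 2 were lower in WT mice (46.1% of all genes were) and none was called there. The WT libraries were uneven in such genes. The intestinal list that holds these 8 summed to 641 and 99.5 in WT-NCD replicates 1 and 2. In WT-HFD replicates 1 to 3 it summed to 3479, 44.4 and 58, so WT-HFD replicate 1 stood apart. Over all genes, 69.5% had the same direction in both genotypes.

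No gene's diet response differed between the genotypes at an adjusted p under 0.05 in limma's interaction test, while 525 of 11177 had an unadjusted p under 0.05 (4.7%), 114 with the higher value in Casp11-/- mice (1.02%) and 411 with the lower (3.68%). The smallest adjusted p was 0.711, for Carmil1, a regulator of actin capping, which was at 24.2, 19.9 and 31.5 on NCD and 9.17, 8.06 and 9.58 on HFD in Casp11-/- mice on NCD and HFD and at 10.7 and 7.26 in WT-NCD and 15.8, 14 and 25 in WT-HFD in WT mice (Casp11-/- minus WT −2.48 ± 0.45 (SE), unadjusted p = 0.000127). Myrf followed (unadjusted p = 0.000333), then Onecut2 (0.000391), Pdp2 (0.000813) and Acad8 (0.00114), all with the lower value in Casp11-/- mice. In the other direction, Nos3 had an interaction of 2.16 ± 0.53 (SE, unadjusted p = 0.00138), Ier5l 2.81 (0.000615) and Rhob, a small GTPase of early responses, 2.45 (0.00116). All adjusted p of these genes other than Carmil1 were 0.899. Idi1 differed by −1.54 ± 0.39 (SE, unadjusted p = 0.00169, adjusted p = 0.899), being at 12.9 and 18.4 in WT-NCD and 13.9, 17.5 and 12.6 in WT-HFD. Nr1h3 was at 22.9 and 14.7 in WT-NCD and 84.5, 75.7 and 84 in WT-HFD in WT mice and differed by −1.82 ± 0.50 (SE, unadjusted p = 0.00336, adjusted p = 0.899). Without Casp11-/- NCD replicate 2 the interaction had 21 calls, 12 higher and 9 lower.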

How the data were processed

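The authors lysed the immune cell fraction of livers in TRIzol, made random-primed stranded total RNA libraries with ribosomal cDNA depletion, aligned reads to mm10 (GRCm38.p6) with STAR and computed TPM (transcript abundance scaled to a fixed total) in Qlucore Omics Explorer. The deposited values are these TPM, treated here as a score because they have a lower bound of 1.01 and sum to between 1000353 and 1022495. They hold 40840 genes and no counts, so depth is unknown.

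Gene types came from RefSeq. The 21708 protein-coding genes were rescaled so that values above the bound summed to 1000000 per library, values under the highest rescaled bound (5.43) were raised to it, and log2 was taken without a pseudocount. Genes above this floor in at least 3 of the 6 Casp11-/- libraries (11053) were compared by limma 3.58.1 in R 4.3.3, with the prior variance following mean level, two-sided, on diet alone. The spread came from these 6 libraries, with 4 residual degrees of freedom, and p-values measure the spread between them. Adjustment was by Benjamini-Hochberg over all genes tested. The study used ANOVA. For the comparison with WT mice, diet, genotype and their interaction were fitted to 11 libraries, without WT-NCD replicate 3, over 11177 genes with a floor of 6.79. The scripts also used Python 3.11.15, pandas 2.3.3, numpy 2.4.6 and matplotlib 3.10.9, and the fits were tested on simulated data.

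Groups were taken from sample titles. The mice, gene lists and tests were chosen with earlier results of these data known. Genes were named as the 12 of smallest p in each direction whose groups do not overlap, members of the lists by p and level, genes the study names, and the 5 of smallest interaction p in each direction. Adamts1, Jam2, Spats2, Vcam1, Hecw2 and Osmr lie beyond the 12 and were named after their values were seen, as were Gpnmb, Nr1h3 and Idi1 in the comparisons where they are mentioned. A list of genes near Casp4 lost Card6, which lies on chromosome 15. The alternatives covered scaling, floor, pseudocount, filter, spread, a replicate block and each library left out. Same-numbered NCD and HFD libraries did not deviate together (correlations 0.0592, −0.0431 and 0.207 for numbers 1 to 3), so the numbers were not taken as pairs.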

Additional observations from a re-analysis of the deposited data

Results flagged for a closer look

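U3 small nucleolar RNA lies outside the protein-coding comparison and had the largest difference of the RNA classes in percentage points, though not by fold. Its 5 genes held 37.1% ± 14.1 of the deposited TPM in Casp11-/- HFD mice and 3.04% ± 1.80 in Casp11-/- NCD mice (SD, n = 3 each), with every HFD library (25.8% to 52.9%) above every NCD library (1.24% to 4.84%). The single gene of 7SK RNA went the other way, at 16.7%, 6.69% and 19.2% on NCD and 2.54%, 3.81% and 5.32% on HFD. The 2 genes of 7SL RNA overlapped, at 29.1%, 52.8% and 14.5% on NCD and 14.4%, 30.7% and 35.8% on HFD. Shares of a library sum to a fixed total, so a high share of one class lowers the others. Groups of 3 libraries are too small for a test of single libraries that stand apart.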

How the results depend on the processing

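Of the 28 calls, every one that could be tested kept its direction in all alternatives, but the number of calls moved. It was 300 on unscaled TPM of all gene types (49 higher and 251 lower, with 17 of the 28 kept), 16 with median ratio scaling, 16 without the 1% of genes of highest mean, 15 with a pseudocount of 10, 2 with a filter in at least 1 library, 8 with a filter in all 6 libraries (8 of the 28 tested), 530 with the spread of 4 groups, 44 with robust moderation and 3795 with array weights, which gave NCD replicate 2 a weight of 0.287. The filter in all 6 libraries removes any gene at the floor in 1 group, and the cause of the other changes was not tested. Leaving out 1 library gave 1 to 1317 calls, the lowest without NCD replicate 1 and the highest without NCD replicate 2. Alternatives chosen after seeing the data gave 1121 calls without NCD replicate 2 with a filter in 2 libraries (28 of the 28 kept) and 830 without NCD replicate 2 and HFD replicate 3. Genes at p of at most 0.01 and 1.5-fold, 691 as reported, numbered 1111 with the spread of 4 groups, 3203 with array weights, 283 to 1687 with 1 library left out, and 1646 and 1259 in the same added alternatives. On unscaled TPM their split was 150 higher and 709 lower, against 459 and 232.

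The replicate block gave 21 calls (16 higher and 5 lower), 17 of them among the 28, with 762 genes at p of at most 0.01 and 1.5-fold. Same-numbered libraries did not correlate best in each case, so the block is not a pairing by animal. The interaction had 0 calls with the block, 1 on unscaled TPM and 0 to 21 with 1 library left out, the highest without Casp11-/- NCD replicate 2.

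Casp4 changed sign on unscaled TPM (−0.24) and ranged from −0.0080 (without HFD replicate 2) to 0.86 with 1 library left out, with no adjusted p under 0.05. Nr1h3 changed sign on unscaled TPM (−0.26) and ranged from −0.0089 (without NCD replicate 1) to 0.65 with 1 library left out, and Rhob on unscaled TPM (−0.0059). Over 85 named genes, Nr1h3 and Rhob among them and Casp4 not, 1224 of 1629 alternative values kept direction and side of the threshold, 176 lost the threshold and 226 gained it. Removing mitochondrially encoded genes was not run, because none of them was listed. With 3 libraries against 3, an exact permutation test cannot give a p under 0.1, and the unknown depth leaves values near the floor without a counting error.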

Other observations

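Pancreas transcripts were highest in NCD replicate 1. A list of 17 genes of exocrine pancreas, written after the values were seen, summed to 7239.7, 39.1 and 178 in NCD replicates 1 to 3, with all 17 above the deposited bound in NCD replicate 1, and to 40.7, 7.51 and 7.01 in HFD replicates 1 to 3. All 17 were also above the bound in WT-NCD replicates 1 and 2, and 7 were in Casp11-/- NCD replicate 3. They were above it in WT-NCD replicate 3 too, but only 2.85% of all genes were at the bound in that library. NCD replicate 1 was also the highest in plasma cell transcripts, with a summed list of 8496, 1754 and 1284 on NCD.

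Neutrophil genes stood out in HFD replicate 2. The summed list was 2159, 1509 and 1614 on NCD and 658, 20767 and 1318 on HFD, and S100a8, a subunit of calprotectin, was at 715, 719.7 and 656 on NCD and 339, 10592 and 588 on HFD. Cxcl2, a chemokine that attracts neutrophils, was at 5.43, 109.7 and 27.5 on NCD and 34.3, 513 and 387 on HFD, high in HFD replicates 2 and 3.

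HFD replicate 3 differed from the other Casp11-/- libraries in liver genes known to differ between the sexes. Cyp2b9, Cyp2b13 and Cyp2a4, which are higher in female liver, were at 36.4, 25.6 and 34.8 deposited TPM in it and at the bound in the other 5 libraries. Cyp4a12a, which is higher in male liver, was at the bound in it and at 13.4 to 62.1 in the other 5.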
